A study of Mus musculus with 35 samples.

Results

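The 10 genes described here encode cytokines and receptors of the IL-6 family. They are the rows of the deposited tables whose symbol is Il6, Lif, Il11, Clcf1, Ctf1, Il6st, Il6ra, Lifr, Il11ra1 or Osmr. The members were chosen with earlier results of these data known. Each had 1 row among the 55487 genes of each of the 4 tables. The 35 RNA-Seq libraries were 27 of primary cardiac fibroblasts (CFs) from adult mice, which are the adherent cells of dissociated hearts kept in serum, and 8 of whole mouse hearts. CFs were transfected with a scrambled siRNA (Scrambled) or with 1 of 2 siRNAs against IAMP (siR-1 and siR-2), the micropeptide encoded by 4930523C07Rik, and were left untreated, given IL-17 or given TGF-β, with 3 libraries in each of the 9 groups. The labels state 24 h of siRNA and then 24 h of IL-17, and no times are given for the untreated and TGF-β cells. Hearts came from C57BL/6 mice of 8 weeks at baseline, 4 heterozygous for a CRISPR-Cas9 frameshift in IAMP (HET), which served as controls and so carry 1 mutated copy, and 4 KO. The frameshift leaves the transcript in place, so the level of 4930523C07Rik does not check the heart labels. How many mice gave each CF culture, and whether the 3 libraries of a group came from separate cultures, are not given in the sources used here, so p values in CFs measure the spread between libraries, which may be technical.

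Cytokines of the IL-6 family signal through receptor complexes that share gp130, the protein encoded by Il6st. IL-6 and IL-11 first bind an α receptor that does not signal by itself, encoded by Il6ra and Il11ra1, and LIF, cardiotrophin 1 (Ctf1) and cardiotrophin-like cytokine (Clcf1) bring gp130 together with the LIF receptor encoded by Lifr. The product of Osmr pairs with gp130 to form the oncostatin M receptor. Within the cell, the complexes activate JAK kinases and STAT3, and SOCS3 ends the signal. In the heart, fibroblasts are a known source of IL-6 and IL-11, and gp130 signalling in myocytes is known for its part in survival and growth.

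Promoter windows of 300 bases, from 250 bases before to 50 bases after a RefSeq gene start (GRCm38.p6), were found for 9 of the members and gave 12 windows, since Il11, Il11ra1 and Lifr have 2 starts each. The windows of Il6, Lif, Osmr and Il11 are shown because these 4 genes rose with IL-17 in Scrambled CFs, as described further on. Capitals mark every match to 1 of 5 motifs, searched on both strands. The motifs were the κB consensus, AP-1 (TGANTCA), C/EBP (TTNCNNAA), STAT (TTCNNNGAA) and the hypoxia element (ACGTG or GCGTG), and matches of different motifs were allowed to overlap. The 5 windows lie at chr5:30012864-30013163 on the plus strand (Il6), chr11:4257318-4257617 on the plus strand (Lif), chr15:6874264-6874563 on the minus strand (Osmr), and chr7:4782808-4783107 and chr7:4778092-4778391 on the minus strand (the upstream and downstream start of Il11).
Il6: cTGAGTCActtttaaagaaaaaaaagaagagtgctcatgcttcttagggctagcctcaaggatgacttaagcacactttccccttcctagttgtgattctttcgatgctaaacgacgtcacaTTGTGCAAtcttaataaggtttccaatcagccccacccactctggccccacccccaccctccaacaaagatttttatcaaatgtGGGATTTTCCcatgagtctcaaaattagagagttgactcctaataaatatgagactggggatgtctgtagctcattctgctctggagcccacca
Lif: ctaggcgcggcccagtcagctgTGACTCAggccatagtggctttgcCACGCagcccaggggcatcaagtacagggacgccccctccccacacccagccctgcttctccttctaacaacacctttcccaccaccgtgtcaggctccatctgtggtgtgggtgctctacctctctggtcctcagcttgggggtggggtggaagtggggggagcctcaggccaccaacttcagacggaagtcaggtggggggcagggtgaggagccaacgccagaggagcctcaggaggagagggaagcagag
Osmr: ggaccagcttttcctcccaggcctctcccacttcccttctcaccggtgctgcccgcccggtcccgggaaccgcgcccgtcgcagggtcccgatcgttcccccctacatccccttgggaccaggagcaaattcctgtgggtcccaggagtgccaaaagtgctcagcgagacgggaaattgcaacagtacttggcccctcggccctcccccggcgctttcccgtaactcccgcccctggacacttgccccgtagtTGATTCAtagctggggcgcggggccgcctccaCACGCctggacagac
Il11, upstream start: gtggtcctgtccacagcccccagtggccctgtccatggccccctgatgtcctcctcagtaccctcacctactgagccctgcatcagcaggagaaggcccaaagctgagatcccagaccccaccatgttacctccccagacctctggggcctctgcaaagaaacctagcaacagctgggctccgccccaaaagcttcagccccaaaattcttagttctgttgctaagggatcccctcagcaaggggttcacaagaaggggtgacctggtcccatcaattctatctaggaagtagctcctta
Il11, downstream start: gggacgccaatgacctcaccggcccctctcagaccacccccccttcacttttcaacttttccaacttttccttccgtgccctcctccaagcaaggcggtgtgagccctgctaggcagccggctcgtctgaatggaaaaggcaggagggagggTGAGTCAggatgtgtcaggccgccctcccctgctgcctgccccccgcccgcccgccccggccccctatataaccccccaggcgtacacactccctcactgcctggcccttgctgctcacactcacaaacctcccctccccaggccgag

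In Il6, the κB match GGGATTTTCC begins at position -44 from the gene start, the C/EBP match TTGTGCAA at -128 and the AP-1 match TGAGTCA at -249. No other member window held the κB letters, which 4.51% of the 32851 promoters of the table hold. AP-1 letters, held by 7.81% of promoters, were found in the windows of Il6, Lif and Osmr and in the downstream window of Il11, while the upstream window of Il11 held none of the 5 motifs. The C/EBP letters are common (40.7% of promoters) and were found in Il6 and Il6ra, and the hypoxia letters (43.8%) in Il6ra, Ctf1, Lif, Osmr and 1 of the 2 windows of Lifr. No member window held the STAT letters, which 8.30% of promoters hold. A match is a description of the letters in these windows and was not tested for binding or activity.

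Levels are given as counts-per-million (CPM), scaled with TMM factors over the 27 CF libraries together and over the 8 hearts together. A CF library held 104139670 to 119232309 estimated counts and a heart 23497027 to 23857313 counts. In CFs, 1 read pair was taken to stand for up to 6 estimated counts, which the sources used here do not state. The value 6 was the most frequent among genes found in only 1 library (21.9%, 22.0% and 17.0% of them in untreated, IL-17 and TGF-β cells). On that inference, a level of 18 estimated counts, or 3 read pairs, was taken as the floor of detection, and in hearts 3 counts. A gene was called where its edgeR p, adjusted over all genes tested, was at most 0.05 and its log2 fold change was at least 1 in size in untreated CFs, in hearts, between stimuli and for differences between effects, and at least 0.585 (1.5-fold) for siRNAs under IL-17 and TGF-β. Fold changes are followed by their standard errors (SE).

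Knockdown of IAMP was present in every siRNA library. Untreated Scrambled CFs held 4930523C07Rik at 22.0, 22.7 and 25.7 CPM, siR-1 cells at 2.52, 3.51 and 2.98 CPM, and siR-2 cells at 1.77, 1.87 and 1.89 CPM. In untreated cells the log2 fold change was -2.97 (SE 0.11) for siR-1 and -3.69 (SE 0.12) for siR-2. It was -2.85 (SE 0.11) and -3.44 (SE 0.11) under IL-17, and -2.23 (SE 0.11) and -2.65 (SE 0.11) under TGF-β. The 7 fibroblast markers were all above the floor in every CF group, led by Col1a1 at 3743 CPM in untreated Scrambled cells. Of the 5 cardiomyocyte markers, Tnnt2 stood at 93.4 CPM in these cells, and none of the other 4 averaged more than 0.608 CPM, with Myh6 at 0.

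The family was unevenly expressed in CFs. Per kilobase of exon, Il6st was the most abundant member in untreated Scrambled cells, at 47.0 ± 1.90 CPM per kb (SD, n = 3). Il11ra1 (20.3 ± 0.946), Lif (16.2 ± 0.760) and Osmr (10.3 ± 0.717) came next. Il6 (7.99 ± 0.320) and Clcf1 (4.81 ± 0.359) stood in the middle. Lifr (1.85 ± 0.0530) and Il6ra (1.75 ± 0.0915) had overlapping libraries, and Il11 (0.866, with libraries from 0.743 to 0.954) and Ctf1 (0.200 ± 0.0504) were lowest. The order therefore placed the shared receptor gp130 first and 2 ligands last, and Ctf1 rested on 35, 56 and 42 estimated counts in the 3 libraries.

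In untreated CFs, Il6 rose with both siRNAs. It stood at 20.2, 19.3 and 18.7 CPM in the Scrambled libraries, at 49.7, 48.4 and 48.8 CPM with siR-1 and at 131, 131 and 140 CPM with siR-2. The 3 groups did not overlap. Il6 changed by 1.33 (SE 0.04, edgeR adjusted p = 4.88e-13) on the log2 scale for siR-1 and by 2.77 (SE 0.04, edgeR adjusted p = 9.12e-17) for siR-2. Clcf1 was at 19.9, 17.8 and 17.3 CPM in Scrambled cells, at 42.3, 42.1 and 38.7 CPM with siR-1 and at 35.0, 32.6 and 34.9 CPM with siR-2. Every siRNA library lay above every Scrambled library, and the change passed the test with siR-1 (1.16, SE 0.06) and fell short of the fold threshold with siR-2 (0.88, SE 0.06). Osmr was at 128, 132 and 115 CPM in Scrambled cells, at 202, 193 and 204 CPM with siR-1 and at 253, 273 and 263 CPM with siR-2. It rose with siR-2 (1.05, SE 0.04), where the change without Scrambled replicate 3 was 0.996, just under the threshold, and was 0.66 (SE 0.04) with siR-1.

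With siR-1, 2 of 10 members were called higher and 0 lower in untreated CFs, beside 2.15% and 2.61% of the 19669 genes tested, and with siR-2, 2 were called higher and 0 lower, beside 3.42% and 7.23%. The members' median log2 fold change was 0.43 for siR-1 and 0.40 for siR-2, and that of all genes tested -0.02 for each. At an adjusted p of 0.05 without a fold threshold, siR-1 left 6 members higher and 2 lower, beside 19.5% and 20.4% of genes, and siR-2 left 6 higher and 3 lower, beside 24.4% and 25.0%. The α receptor Il6ra was in both of these sets of 6 (0.86, SE 0.05, and 0.57, SE 0.05), as was Il6st (0.50, SE 0.03, and 0.33, SE 0.03). Il11ra1 was lower in both (-0.30, SE 0.04, and -0.22, SE 0.04). The 2 siRNAs differed in sign for Lif (0.37, SE 0.06, and -0.42, SE 0.06) and for Il11 (-0.73, SE 0.19, and 0.48, SE 0.18), none of which reached the fold threshold. Lifr, at 20.4, 19.3 and 20.1 CPM in Scrambled cells, was at 14.1, 12.7 and 12.7 CPM with siR-2 (-0.62, SE 0.08) and overlapped with Scrambled with siR-1 (0.11, SE 0.07). Ctf1 had SEs of 0.63 with both siRNAs and no change that passed.

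The direct comparison of both siRNAs in untreated cells called Il6 (1.44, SE 0.04) and Il11 (1.21, SE 0.19) higher with siR-2, and 0 members lower, beside 2.24% and 4.41% of genes. Il11 was at 1.02, 1.32 and 0.929 CPM with siR-1 and at 2.46, 2.47 and 2.70 CPM with siR-2, with the Scrambled libraries between them at 1.55, 1.99 and 1.88 CPM. Lif differed by -0.79 (SE 0.06) and Lifr by -0.73 (SE 0.08), under the fold threshold. Other cell type markers moved beside these results. Macrophage and leukocyte markers summed to 58.0 ± 2.03 CPM in Scrambled cells, 59.8 ± 1.71 CPM for siR-1 and 77.0 ± 1.48 CPM for siR-2 (SD, n = 3), with Lyz2 the most abundant and 1 of the 7 called higher with siR-2, Csf1r (1.14). Fibroblast markers summed to 10021 ± 76.6, 12884 ± 160 and 8871 ± 149 CPM, with 0 of 7 called. The mural cell list summed to 470 ± 1.25, 797 ± 19.1 and 295 ± 7.86 CPM, most of it Pdgfrb, a gene that fibroblasts also express. No mural marker was called against Scrambled, and Pdgfrb was called lower with siR-2 than with siR-1 (-1.60). Tnnt2 fell to 44.4 and 30.0 CPM with the siRNAs, and Tnni3, another of the 3 cardiomyocyte markers tested, fell with siR-2 (-1.93, SE 0.65). With siR-2, 3 of the 5 markers on the cardiomyocyte list were at or under the floor, and the most abundant after Tnnt2 averaged 0.4995 CPM. The size of the Tnni3 change is therefore uncertain. Endothelial markers summed to 49.2 ± 2.99, 44.8 ± 2.52 and 43.1 ± 2.19 CPM, with 0 of 5 called. Their part in the results was not tested.

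**Figure D1:**
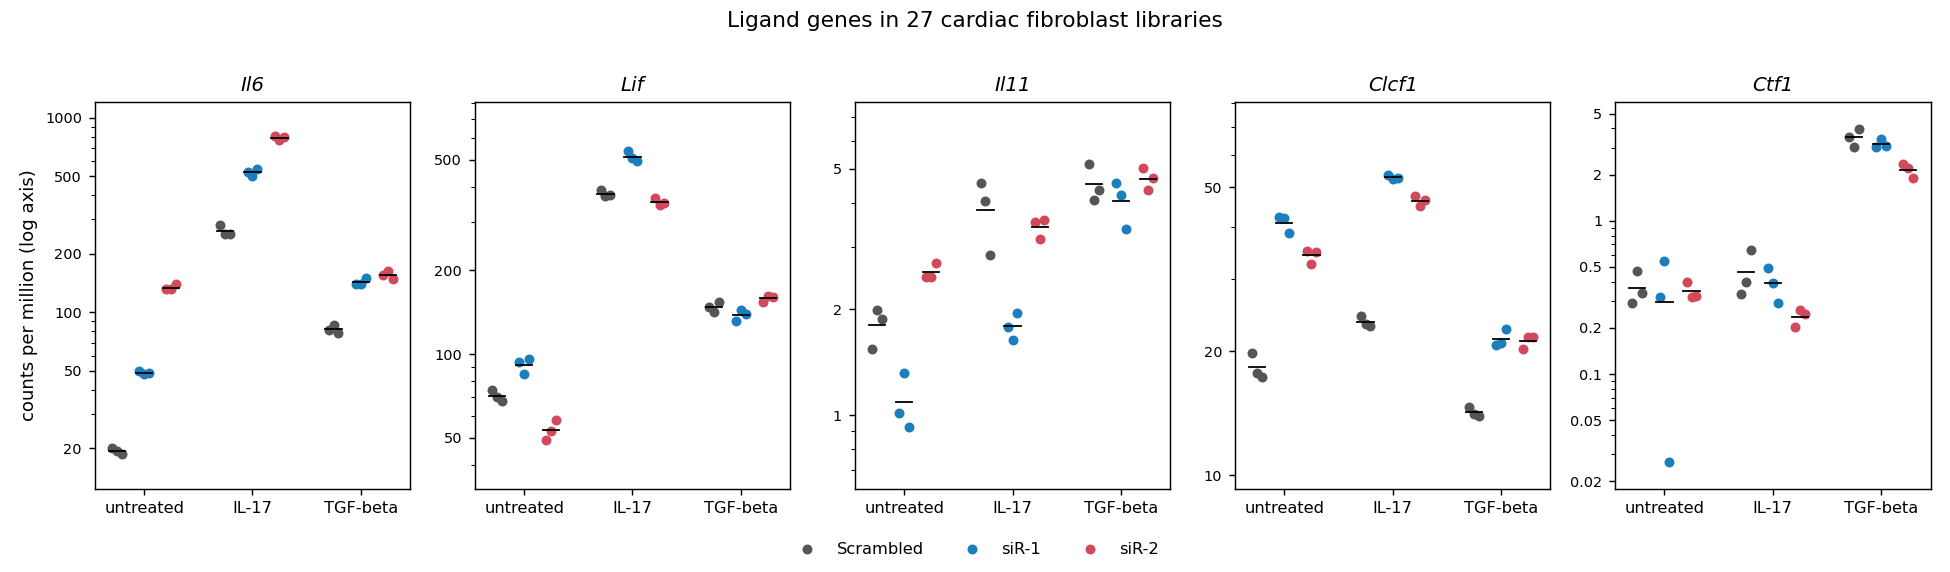
CPM (log axis) of the 5 ligand genes in each of the 27 CF libraries, by siRNA (color) and stimulus, with a line at each group's mean of 3 libraries. Il6 lies higher with both siRNAs under every stimulus, and the 3 IL-17 groups of Il6 and Lif lie above all others.

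**Figure D2:**
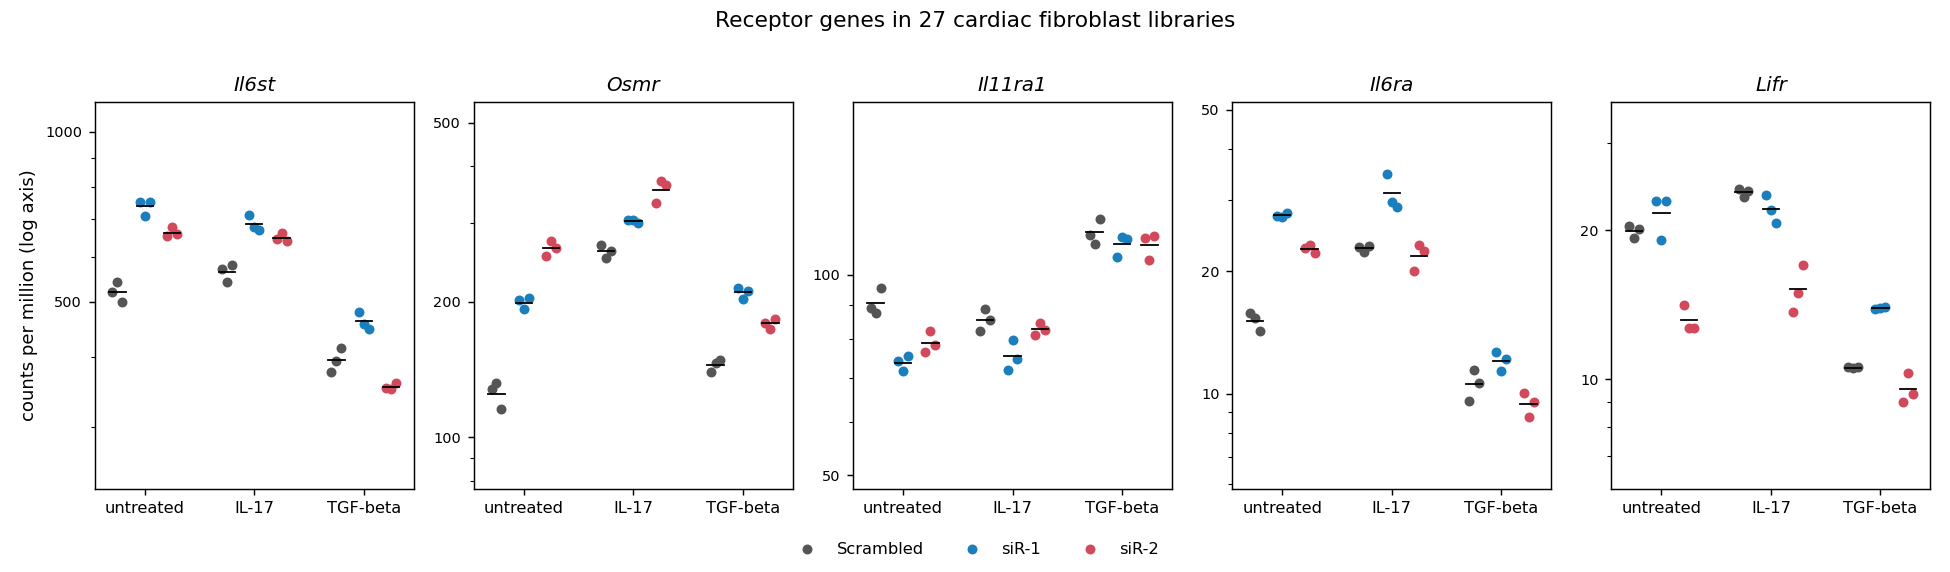
CPM (log axis) of the 5 receptor genes in the same 27 libraries, with a line at each group's mean. Osmr lies higher with both siRNAs under every stimulus, and the untreated and IL-17 levels of Lifr are lowest with siR-2.

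IL-17 raised 4 members in Scrambled CFs. Il6 went from 19.4 ± 0.777 CPM to 280, 252 and 253 CPM, a log2 fold change of 3.75 (SE 0.05, edgeR adjusted p = 3.83e-27). Lif went from 70.7 ± 3.31 CPM to 389, 369 and 373 CPM (2.41, SE 0.06). Neither gene had an IL-17 library near the untreated range. Osmr went from 125 ± 8.69 CPM to 267, 250.5 and 260 CPM (1.05, SE 0.04), and without untreated Scrambled replicate 3 the change was 0.99. Il11 went from 1.80 ± 0.229 CPM to 4.55, 4.06 and 2.86 CPM (1.08, SE 0.17), and fell under the threshold without IL-17 replicate 1 (0.94) or without untreated replicate 1 (0.98). Called members were thus 4 higher and 0 lower of 10, beside 1.09% and 0.306% of the 21219 genes tested.

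Il6ra was 0.59 (SE 0.06), Clcf1 0.36 (SE 0.05) and Lifr 0.26 (SE 0.08) higher under IL-17, and the receptors Il6st (0.11, SE 0.03) and Il11ra1 (-0.09, SE 0.04) moved least, with library ranges that overlapped. Because untreated and IL-17 libraries come from separate deposited tables, stimulus and table cannot be told apart. The summed macrophage and leukocyte markers were 56.7 ± 0.506 CPM and the endothelial markers 48.3 ± 2.45 CPM under IL-17, beside 58.0 ± 2.03 and 49.2 ± 2.99 CPM in untreated Scrambled cells. None of the 7 and none of the 5 was called between these groups, nor was any of the 7 fibroblast or 5 mural markers. Of the 4 cardiomyocyte markers tested, 1 was called lower under IL-17, Ryr2 (-2.31, SE 0.46), which held 38 to 98 estimated counts in untreated libraries and 6 to 20 under IL-17. The cardiomyocyte list summed to 72.4 ± 3.73 CPM under IL-17 beside 94.4 ± 3.92 CPM, nearly all of it Tnnt2. The part of these markers in the result was not tested.

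IAMP knockdown raised Il6 further in IL-17-treated cells. The siR-1 libraries held it at 523, 502 and 547 CPM, and the siR-2 libraries at 801, 764 and 792 CPM, the highest of any group. Against Scrambled, siR-1 changed it by 0.99 (SE 0.04, edgeR adjusted p = 4.26e-12) and siR-2 by 1.57 (SE 0.04, edgeR adjusted p = 6.24e-15). Clcf1, at 24.3, 23.3 and 23.1 CPM in Scrambled cells, stood at 53.6, 52.2 and 52.6 CPM with siR-1 and at 47.6, 44.9 and 46.4 CPM with siR-2. It rose with both (1.15, SE 0.04, and 0.96, SE 0.04). Il11 fell with siR-1 (-1.10, SE 0.17), to 1.78, 1.63 and 1.95 CPM, and its level with siR-2 overlapped with that of Scrambled cells (-0.18, SE 0.16). Lifr fell with siR-2 (-0.67, SE 0.07), to 13.6, 14.95 and 17.0 CPM, and was -0.12 (SE 0.07) with siR-1. Ctf1 was at 23 to 30 estimated counts with siR-2, and its change of -0.98 (SE 0.41, edgeR adjusted p = 0.055) passed without Scrambled IL-17 replicate 1 (-1.17) and, with all libraries, under a minimum of 10 counts in every library (-0.99, edgeR adjusted p = 0.021). Lif was at 538, 506 and 495 CPM with siR-1 (0.43, SE 0.03) and at 365, 345 and 349 CPM with siR-2 (-0.11, SE 0.03). Il6ra was 0.44 (SE 0.07) with siR-1 and -0.08 (SE 0.07) with siR-2, and Il6st 0.27 (SE 0.03) and 0.18 (SE 0.03).

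In all, 2 members were called higher and 1 lower with each siRNA under IL-17, beside 5.58% and 7.97% of the 19906 genes tested for siR-1 and 8.06% and 13.7% for siR-2. The median of the members was 0.24 and -0.07, and that of all genes -0.00 and -0.02. Between the siRNAs, Il11 was called higher with siR-2 (0.93, SE 0.17) and 0 members lower, beside 6.07% and 9.62% of genes. For Il6 this difference was 0.57 (SE 0.04), just under the threshold of 0.585. It passed with DESeq2 (0.59), without siR-1 replicate 3 (0.60) and without siR-2 replicate 2 (0.60), and Lifr passed without siR-1 replicate 3 (-0.59) or siR-2 replicate 3 (-0.64). Tnnt2 was at 71.8 CPM in Scrambled cells and fell to 33.5 CPM (siR-1) and 23.6 CPM (siR-2), and Ryr2 was higher with siR-1 (1.61, SE 0.55). Macrophage and leukocyte markers summed to 67.1 ± 2.98 and 81.0 ± 4.46 CPM with the siRNAs, with 1 of 7 called higher with each, Csf1r (0.66 and 1.12). Of the 7 fibroblast markers, 0 were called with siR-1, and with siR-2 Dcn rose (0.96) and Postn (-0.90) and Tcf21 (-0.62) fell. The mural list summed to 416 ± 0.742 CPM in Scrambled cells, 588 ± 6.38 CPM for siR-1 and 252 ± 8.82 CPM for siR-2, with Pdgfrb called higher with siR-1 (0.63) and lower with siR-2 (-0.84), and Rgs5 called in the opposite directions (-0.67 and 0.61). Of the 5 endothelial markers, Kdr fell with both (-1.06 and -0.72). Their part in these results was not tested.

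**Figure D3:**
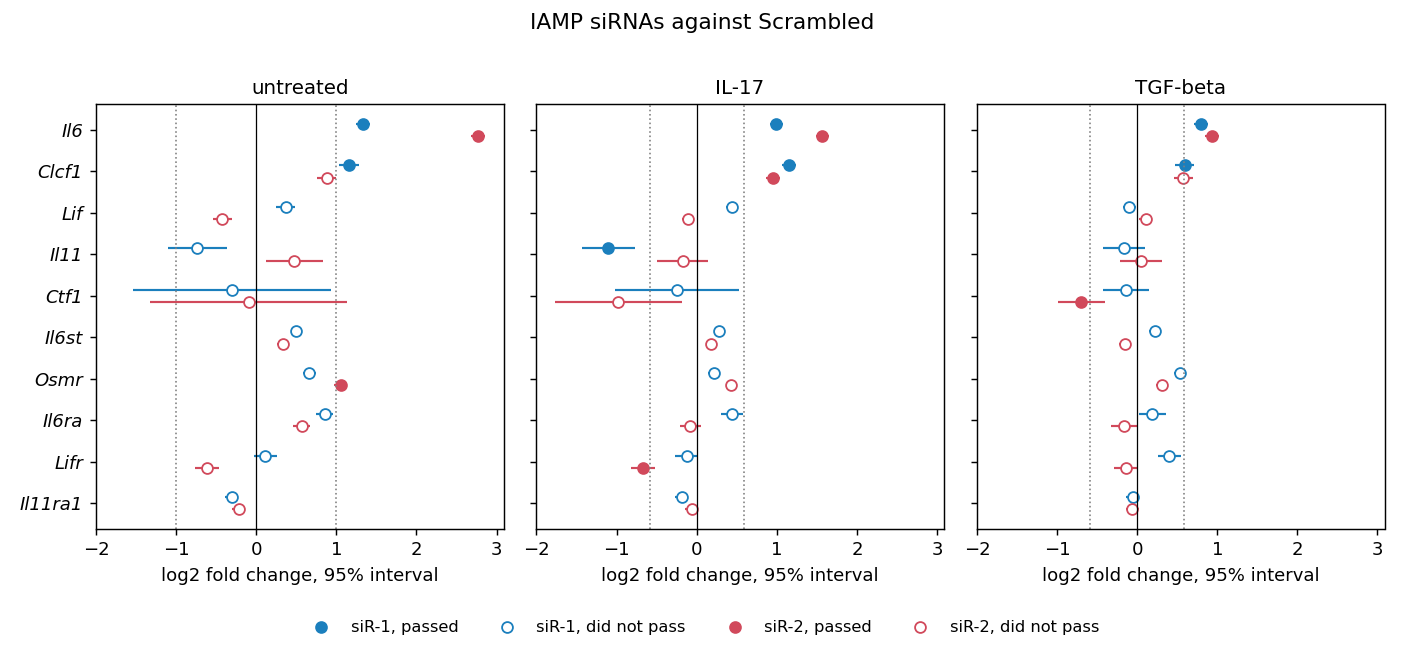
Log2 fold change of each member with siR-1 and siR-2 against Scrambled in the 3 CF tables, with 95% intervals over 3 libraries a group. Filled points passed the test, and dotted lines mark the fold threshold, 1 in untreated cells and 0.585 under each stimulus. Il6 is filled in all 6 comparisons and Clcf1 in 4.

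The effects of the siRNAs were compared between stimuli in 1 fit of 6 groups. The effect of siR-2 on Il6 was smaller under IL-17 than in untreated cells by 1.19 log2 units (difference -1.19, SE 0.06, edgeR adjusted p = 5.45e-13). With siR-1, this difference was -0.34 (SE 0.06). Osmr had differences of -0.45 (SE 0.06) with siR-1 and -0.61 (SE 0.06) with siR-2, and Il6ra of -0.42 (SE 0.09) and -0.64 (SE 0.09). With siR-2, Ctf1 (-0.88, SE 0.79) and Il11 (-0.65, SE 0.24) had differences of such size with wider errors, at edgeR adjusted p values of 0.844 and 0.281. Clcf1 had differences of -0.00 and 0.08, each with an SE of 0.07, and 95% intervals from -0.15 to 0.14 and from -0.06 to 0.23. Called members were 0 with siR-1, beside 0.0895% of genes higher and 0.099% lower, and 1 lower with siR-2, beside 0.0754% and 0.0895%. The siRNA effects and the differences share the Scrambled libraries.

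TGF-β was compared with untreated cells in the same way, and 4 members rose in Scrambled CFs. Ctf1 went from 0.289, 0.467 and 0.337 CPM to 3.53, 3.01 and 3.96 CPM (3.26, SE 0.48), and its untreated Scrambled libraries held 35 to 56 estimated counts. With a minimum of 10 counts in every library it was not tested, since untreated siR-1 replicate 3, in the same fit, held 3. Il6 went to 81.5, 86.2 and 78.8 CPM (2.08, SE 0.05, edgeR adjusted p = 2.19e-21), Il11 to 5.15, 4.08 and 4.36 CPM (1.33, SE 0.16) and Lif to 148, 141 and 154 CPM (1.06, SE 0.06). For all 4, every TGF-β library lay above every untreated one, but the 2 groups were separate for all 10 members. How many of all genes had separate groups was not counted. At an adjusted p of 0.05 without a fold threshold, 6307 of the 21508 genes tested were higher and 6013 lower. The fifth ligand, Clcf1, was lower under TGF-β, at 14.6, 14.1 and 13.9 CPM, below every untreated library (-0.37, SE 0.06), and did not reach the threshold. Among the receptors, Lifr, at 10.6, 10.5 and 10.6 CPM, was -0.92 (SE 0.07), Il6ra -0.52 (SE 0.07) and Il6st -0.41 (SE 0.04), while Il11ra1 was 0.35 (SE 0.04) and Osmr 0.21 (SE 0.04). None of these 5 receptors reached the threshold of 1.

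The 4 members called higher and 0 lower stand beside 12.5% and 9.07% of the 21508 genes tested, and the median of the members was 0.28 and that of all genes 0.03. The TGF-β table differed from the untreated table in genes of several other cell types. Of the 7 macrophage and leukocyte markers, 5 were called higher, and their sum was 163 ± 4.60 CPM beside 58.0 ± 2.03 CPM, with Lyz2 at 113 CPM. Endothelial markers summed to 89.1 ± 0.753 CPM beside 49.2 ± 2.99 CPM, fibroblast markers to 15322 ± 312 CPM beside 10021 ± 76.6 CPM, and Tnnt2 was at 4.76 CPM beside 93.4 CPM. Within the lists, Dcn rose and Pdgfra fell (1.959 and -1.466), Tie1 and Emcn rose and Kdr fell (1.29, 1.41 and -1.47), Rgs5 rose (2.40), and Tnnt2 and Ryr2 fell (-4.30 and -1.60). Saa3, an acute phase gene, was at 203 to 236 CPM in the 3 TGF-β Scrambled libraries and at most 7 estimated counts in the untreated ones, below the floor. The part of these differences in the rise of the 4 ligands was not tested, and TGF-β and table cannot be told apart.

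With TGF-β, Il6 rose with both siRNAs. It was at 139, 140 and 150 CPM with siR-1 (0.80, SE 0.04, edgeR adjusted p = 8.99e-10) and at 156, 164 and 149 CPM with siR-2 (0.93, SE 0.04, edgeR adjusted p = 8.32e-11). The siRNA groups overlapped, and the difference between them was 0.13 (95% interval 0.04 to 0.21). Clcf1 lay on both sides of the threshold, at 0.592 (SE 0.06) with siR-1, which was called, and 0.577 (SE 0.06) with siR-2, which was not. Its call with siR-1 was lost without Scrambled replicate 3 (0.58) or siR-1 replicate 3 (0.55), and that with siR-2 was gained without Scrambled replicate 1 (0.60) or siR-2 replicate 1 (0.61). Ctf1 fell with siR-2 (-0.70, SE 0.15), to 2.34, 2.22 and 1.90 CPM, and was at 3.02, 3.44 and 3.08 CPM with siR-1 (-0.14, SE 0.15). Osmr was higher by 0.53 (SE 0.04) and 0.31 (SE 0.04) without reaching the threshold, and Lifr by 0.40 (SE 0.07) with siR-1. The siRNAs differed in sign for Il6st, at 0.23 (SE 0.04) with siR-1 and -0.15 (SE 0.04) with siR-2. For Il6ra the changes were 0.19 (SE 0.08) and -0.16 (SE 0.09), and its libraries overlapped with Scrambled in both cases.

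Of the 10 members, 2 were called higher and 0 lower with siR-1 under TGF-β, beside 2.45% and 1.91% of the 19891 genes tested, and 1 higher and 1 lower with siR-2, beside 2.07% and 5.44%. Their median was 0.21 and -0.00, and that of all genes 0.00 and 0.01. Between the siRNAs, 0 members were called, beside 0.84% and 3.12% of genes, with Ctf1 (-0.56, SE 0.15), Lifr (-0.55, SE 0.07) and Il6st (-0.38, SE 0.04) the largest of the differences. Without siR-1 replicate 1 or siR-2 replicate 1 Ctf1 passed (-0.59 and -0.62), and without siR-2 replicate 2 Lifr did (-0.60). Macrophage and leukocyte markers summed to 137 ± 8.05 CPM (siR-1) and 147 ± 3.33 CPM (siR-2), below the Scrambled sum, and 1 of 7 was called lower with siR-1, Adgre1 (-0.75). Pdgfra, a fibroblast marker, was called higher with siR-1 (0.589), and Myh11 (-0.90), a mural marker, and Tnnt2 (-0.67) were called lower with siR-2. The mural list summed to 722 ± 36.7 CPM in Scrambled cells, 746 ± 19.7 CPM for siR-1 and 545 ± 13.1 CPM for siR-2. None of the 5 endothelial markers was called, and the part of these markers was not tested.

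Against untreated cells, the effect of siR-2 on Il6 was smaller under TGF-β by 1.86 log2 units (difference -1.86, SE 0.06, edgeR adjusted p = 2.69e-16). With siR-1 the difference was -0.53 (SE 0.06). Osmr (-0.76, SE 0.06) and Il6ra (-0.75, SE 0.10) had the next largest differences with siR-2, and Il6ra (-0.67, SE 0.10) and Clcf1 (-0.57, SE 0.08) the largest with siR-1. Lif differed in opposite directions, -0.47 (SE 0.08) with siR-1 and 0.51 (SE 0.08) with siR-2. The calls were 0 members with siR-1, beside 1.43% of genes higher and 0.935% lower, and 1 member lower with siR-2, beside 2.88% and 2.21%. The effect of siR-2 on 4930523C07Rik itself differed by 1.03 (SE 0.16), which was called, and that of siR-1 by 0.73 (SE 0.15), which was under the threshold.

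**Figure D4:**
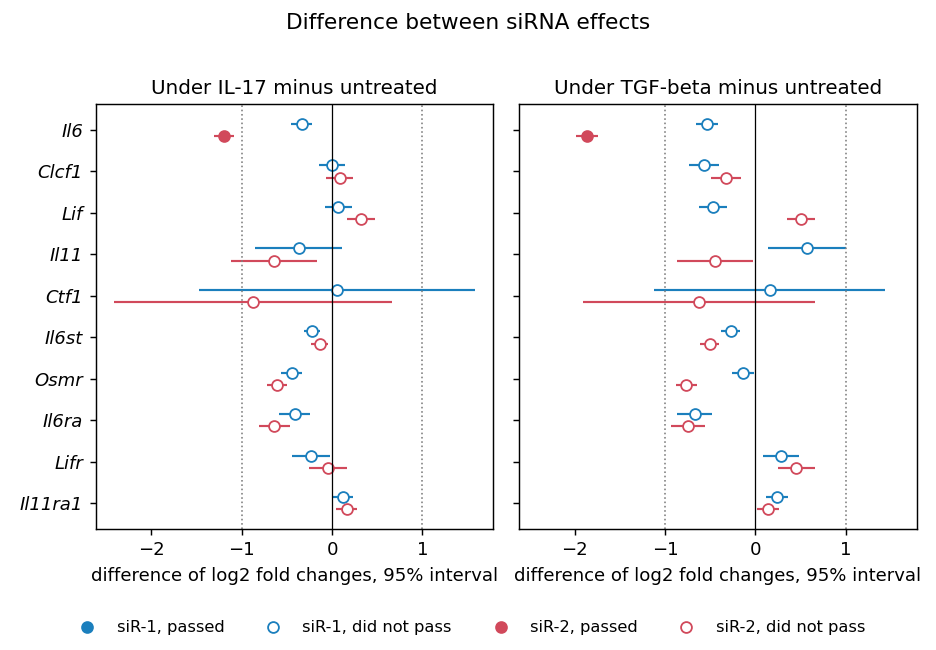
Difference between the siRNA effect under a stimulus and in untreated CFs for each member, with 95% intervals. Dotted lines mark a difference of 1, and the filled points are Il6 with siR-2, at -1.19 under IL-17 and -1.86 under TGF-β.

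Across the 9 CF groups, the order of Il6 levels ran from untreated Scrambled (19.4 ± 0.777 CPM) over untreated siR-1 (49.0 ± 0.695), TGF-β Scrambled (82.1 ± 3.74), untreated siR-2 (134 ± 5.07), TGF-β siR-1 (143 ± 5.85) and TGF-β siR-2 (156 ± 7.51) to the IL-17 groups, Scrambled (262 ± 16.3), siR-1 (524 ± 22.4) and siR-2 (785 ± 19.3). Untreated siR-2 overlapped with TGF-β siR-1, and TGF-β siR-1 with TGF-β siR-2, while the other neighbors were separate. Lif had another order, from untreated siR-2 (53.4 ± 4.41 CPM) over untreated Scrambled (70.7 ± 3.31), untreated siR-1 (91.5 ± 6.16) and the TGF-β groups (138 to 159 on average) to IL-17 siR-2 (353 ± 10.6), Scrambled (377 ± 10.7) and siR-1 (513 ± 22.0). Under TGF-β, Lif in Scrambled cells overlapped with siR-1 and with siR-2.

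The gene with the pattern most like Il6 over the 27 CF libraries was Vcam1, a leukocyte adhesion molecule (Pearson r = 0.948 on log2 CPM + 1, among 13330 genes of at least 1 CPM). Nfe2l2 (0.938), which encodes NRF2, Olr1 (0.933), Cxcl3 (0.933), a neutrophil chemokine, and Litaf (0.932) followed. Closest to Lif were Odc1 (0.973), the first enzyme of polyamine synthesis, Lrig1 (0.958), Vegfa (0.938), Lhfpl2 (0.936) and Nfkbiz (0.918), a regulator of Il6 transcription. The 2 sets of 5 shared no gene. The libraries share tables and groups, and the correlations are descriptions.

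Of 11 other ligands and receptors of the family, 6 could be tested in untreated and IL-17-treated cells and 7 under TGF-β, and 0 of these were called higher with an siRNA against Scrambled. The shares of all genes called higher were 2.15% and 3.42% in untreated cells, 5.58% and 8.06% under IL-17 and 2.45% and 2.07% under TGF-β (siR-1 and siR-2), so that a list this short would hold few or no calls at those shares. Osm, the ligand of the Osmr complex, held at most 44 estimated counts in a TGF-β library, 30 in an IL-17 library and 6 in an untreated one, and was under the filter in the untreated and IL-17 tables. Cntfr, the α receptor for CNTF, was at 2.62 ± 0.643 CPM in untreated Scrambled cells and fell with siR-2 in each table (-1.32, SE 0.23, -1.51, SE 0.20, and -1.03, SE 0.14). Il27ra fell with both siRNAs under IL-17 (-0.65, SE 0.11, and -1.13, SE 0.11). Of the 6 genes of this list tested in untreated cells, 0 were called lower with siR-1 and 2 with siR-2, Cntfr and Cntf (-1.38, SE 0.39), beside 2.61% and 7.23% of all genes.

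Among the 12 kinases, STATs and SHP2 partners, 1 was called in untreated cells, Stat3 with siR-2, beside 3.42% of all genes higher. It rose from 229 ± 0.251 to 496 ± 11.6 CPM (1.10, SE 0.03), was 0.45 (SE 0.03) higher with siR-1, and rose with siR-2 under IL-17 (0.81, SE 0.03). Tyk2, a JAK kinase, rose with siR-2 under IL-17 (0.66, SE 0.05). Under IL-17 the calls in this list were 0 higher against 1 lower for siR-1, beside 5.58% and 7.97% of all genes, and 2 against 1 for siR-2, beside 8.06% and 13.7%. Of the 9 inhibitors, Socs3 rose with siR-2 in untreated cells (1.26, SE 0.08), from between 13.0 and 16.0 CPM to between 35.3 and 37.1 CPM, and was 0.19 (SE 0.08) with siR-1. Under IL-17 it fell with siR-1 (-0.92, SE 0.06) and was -0.34 (SE 0.06) with siR-2, so that its direction differed from that of Il6 in the same libraries. Socs1 fell under IL-17 with both siRNAs (-0.86, SE 0.17, and -0.85, SE 0.17), and Ptpn2, a phosphatase of JAKs and STATs, was called in none of the 6 siRNA comparisons.

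Of the 18 STAT3 response genes, 2 were called higher with siR-1 and 6 with siR-2 in untreated cells, beside 2.15% and 3.42% of all genes, and 0 lower with either, beside 2.61% and 7.23%. Their median was 0.29 for siR-1 and 0.70 for siR-2 in untreated cells, -0.11 and 0.15 under IL-17, and 0.16 with each under TGF-β, beside medians of all genes between -0.02 and 0.01. Serpina3n, a secreted protease inhibitor, rose from 224 ± 16.9 to 649 ± 48.1 CPM with siR-1 (1.53, SE 0.07) and to 938 ± 49.7 CPM with siR-2 (2.05, SE 0.07). Bcl3, an atypical IκB protein, rose with siR-2 (2.27, SE 0.11) and was 0.89 (SE 0.11) with siR-1. Under IL-17 the list split with siR-1, into 4 higher and 3 lower, beside 5.58% and 7.97% of all genes, and with siR-2 into 3 and 1, beside 8.06% and 13.7%. Saa3 rose with both siRNAs (2.60, SE 0.24, and 2.39, SE 0.24) from 0.485 ± 0.194 CPM. Under TGF-β, 1 gene was called higher with each siRNA, beside 2.45% and 2.07% of all genes, Saa3 with siR-1 (0.60, SE 0.05) and Pim1 with siR-2 (0.61).

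Among the 12 regulators of Il6 transcription and mRNA decay, Cebpb, a C/EBP factor, rose with both siRNAs in untreated cells (1.19, SE 0.05, and 1.62, SE 0.05), from between 35.7 and 40.1 CPM to between 82.5 and 92.5 and between 114 and 125 CPM. It rose with siR-2 under IL-17 (0.67, SE 0.04), and did not reach the threshold with siR-1 under IL-17 (0.58, SE 0.04) or with either under TGF-β (0.46, SE 0.05, and 0.51, SE 0.05). IL-17 raised 5 of the 12 in Scrambled cells and lowered 0, beside 1.09% and 0.306% of all genes, led by Zc3h12a (3.86, SE 0.05), an RNase that degrades Il6 mRNA, and Nfkbiz (2.58). Zc3h12a was also higher with both siRNAs, by 0.76 (SE 0.07) and 0.77 (SE 0.07) in untreated cells and by 0.51 (SE 0.03) and 0.63 (SE 0.03) under IL-17, and was called in the last of these. Fosl1, an AP-1 subunit, rose with siR-2 under TGF-β, from between 9.06 and 13.9 CPM to between 28.6 and 32.8 CPM, and under IL-17 (0.60, SE 0.08). Other regulators fell under IL-17, so that the calls were 3 higher against 3 lower for siR-2 and 0 against 1 for siR-1, beside 8.06% and 13.7% and 5.58% and 7.97% of all genes. Jun, an AP-1 subunit, fell with siR-2 (-0.97, SE 0.05), as did Rc3h1 (-0.75, SE 0.04), which encodes the mRNA decay factor Roquin-1. Arid5a, which stabilizes Il6 mRNA, fell with both siRNAs (-0.70, SE 0.07, and -0.60, SE 0.07). In untreated cells, Cebpd was called higher with siR-2 (1.42, SE 0.05).

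In whole hearts Il6, Il11 and Lif were near the floor. Il6 had no count in 7 of 8 hearts and 3 counts in KO heart 2, which is the floor that a count of 0 allows. Il11 had 0 to 5 counts and Lif 3 to 12 counts a heart, and all 3 genes were under the filter. Ctf1 stood at 5.12 ± 0.533 CPM (HET) and 4.98 ± 0.765 CPM (KO; SD, n = 4), and Clcf1 at 2.50 ± 0.410 and 2.38 ± 1.01 CPM, with KO heart 4 lowest at 0.905 CPM. Per kilobase, Il6st (10.5 ± 0.908 CPM per kb in HET) and Il11ra1 (8.63 ± 0.410) were again the most abundant receptors. In bulk samples, fewer cells of a type and less RNA per cell cannot be told apart.

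No member was called between KO and HET hearts, and 0 of the 16675 genes tested were called higher or lower (0% each) by edgeR, with 601 at an unadjusted p under 0.05, and by DESeq2 1 gene was higher and 2 were lower. For Il6st the log2 fold change was 0.01 (95% interval -0.12 to 0.13), for Il11ra1 -0.02 (-0.13 to 0.09), for Osmr 0.10 (-0.17 to 0.38), for Il6ra 0.29 (-0.03 to 0.61) and for Ctf1 -0.04 (-0.29 to 0.21). Clcf1 had a wider interval than these, at -0.07 (-0.68 to 0.54). Lifr was uneven. It was at 12.2, 13.8, 9.24 and 37.2 CPM in the 4 HET hearts and at 11.1, 51.4, 45.9 and 12.9 CPM in the 4 KO hearts, so that 1 HET and 2 KO hearts stood far above the other 5, and the difference between genotypes was 0.74 (95% interval -0.64 to 2.12). With 1 heart left out it ranged from 0.36, without KO heart 2, to 1.37, without HET heart 4. Of 14458 genes, Srcap, which encodes a chromatin remodeling ATPase, had the pattern most like it (Pearson r = 0.968 over 8 hearts). Srcap was at 46.5, 75.2 and 32.0 CPM in the same 3 hearts and between 6.32 and 9.87 CPM in the other 5. Summed cardiomyocyte markers were between 34340 and 37547 CPM and fibroblast markers between 529 and 809 CPM over the 8 hearts, with the 3 hearts at 35217, 35512 and 34347 CPM and at 809, 680 and 712 CPM.

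**Figure D5:**
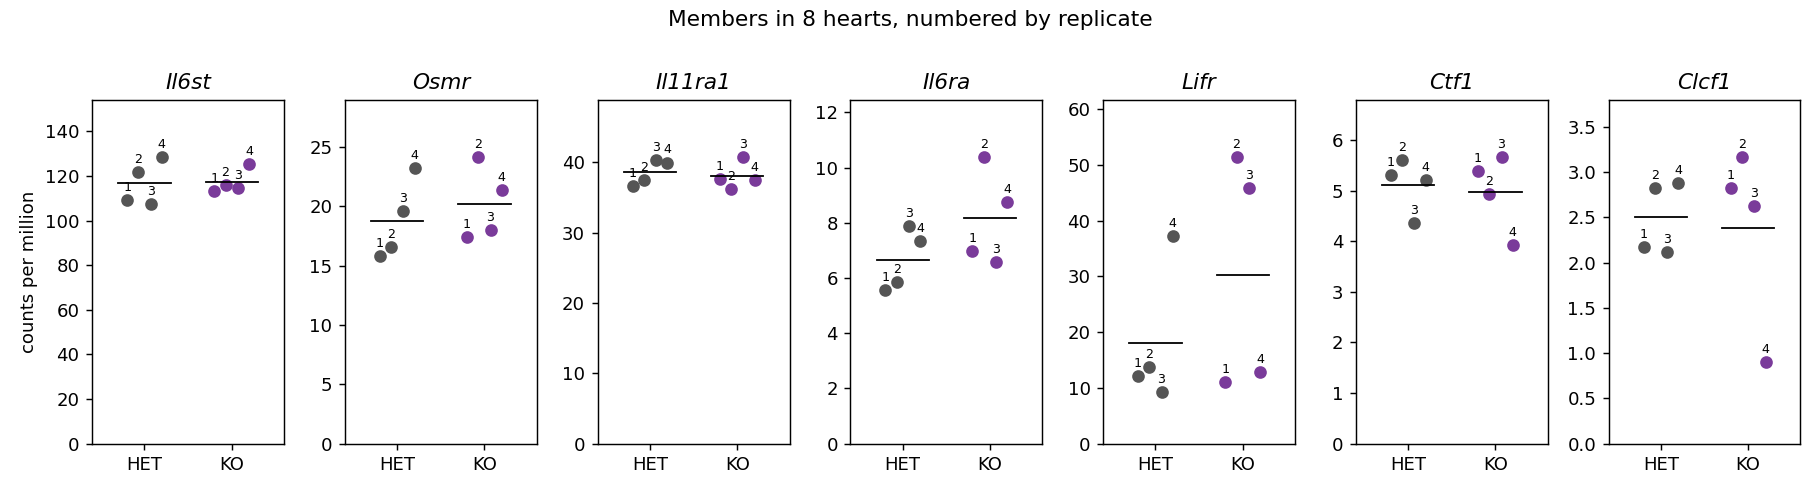
CPM of the 7 members that passed the filter in the 8 hearts, each point a mouse numbered by replicate, with a line at each group's mean of 4. The groups overlap for all 7, and Lifr is high in HET heart 4 and in KO hearts 2 and 3.

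Several rows share sequence or position with other genes, and the strand setting of the counting is not stated. Il6ra overlaps an antisense gene, Ctf1 lies beside and across Ctf2 on the other strand, and Clcf1 overlaps a second protein-coding gene, AC109138.7, on its own strand, so reads could be divided between them. Il11ra1 has near-identical copies under the symbol Il11ra2, and its span holds several other genes. Values of these 4 members and of Il11ra2, which was not called in any siRNA comparison, are uncertain to that extent. On GRCm38 (GENCODE M21), Il6 (ENSMUSG00000025746) lies on chromosome 5 from 30013114 to 30019981, Clcf1 (ENSMUSG00000040663) on chromosome 19 from 4214238 to 4223490, Osmr (ENSMUSG00000022146) on chromosome 15 from 6813577 to 6874969, Lif (ENSMUSG00000034394) on chromosome 11 from 4257557 to 4272514 and Lifr (ENSMUSG00000054263) on chromosome 15 from 7090614 to 7197489. The values describe exonic reads of whole genes, and transcripts were not told apart.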

How the data were processed

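Primary CFs (27 libraries) and hearts (8) were prepared, per the labels, with BGIseq/MGIseq protocols. The authors trimmed reads with Cutadapt 3.7, checked them with FastQC 0.11.9, used HISAT2 2.2.1 for alignment (GRCm38) and StringTie 2.1.4 for quantification. They deposited whole numbers for 55487 genes without normalization, read here as estimated counts in the CF tables and as counts in the heart table. The annotation release, strand setting and steps to whole numbers are not given in the sources used here. 55141 gene identifiers are in GENCODE M21. siRNA codes in the TGF-β sample descriptions link columns to the 2 siRNAs, and heart columns give the genotype only. In untreated and IL-17-treated cells the same codes were taken to mean the same siRNAs, which is an inference from the TGF-β descriptions.

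Each table was fitted with edgeR 4.0.16 (R 4.3.3) using its robust quasi-likelihood test after TMM and filterByExpr, and differences between stimuli in a fit of 18 libraries. Adjusted p values are Benjamini-Hochberg over all genes tested. SEs are the absolute log2 fold change over the square root of F, and 95% intervals are 1.96 SEs. Counting floors cover counting error only. Replicates of every group differed by more than sampling noise. Promoters are from RefSeq. The named genes are the 10 members, 4930523C07Rik, Socs3, Stat3, Osm, Cntfr, Zc3h12a, the 3 genes of each pathway list with the largest mean absolute log2 fold change over the 6 siRNA comparisons, and the 5 genes most like Il6 and Lif. Some genes that this rule names are not reported here. Other genes were named after their values were seen. The members, lists and tests were chosen with earlier results of these data known. The fit was tested on simulated data. Alternatives were DESeq2 1.42.0, RLE size factors, other filters, the other fold threshold, only the 2 groups compared, a block for the replicate number, division of estimated counts by 6, and leaving out each library.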

Additional observations from a re-analysis of the deposited data

Results flagged for a closer look

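The effect of siR-2 on Il6 differed between conditions when the difference itself was tested, at -1.19 (log2) under IL-17 and -1.86 under TGF-β against untreated CFs. The effect of siR-2 on its target 4930523C07Rik differed by 1.03 between TGF-β and untreated cells.

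In HET hearts, Lifr was at 37.2 CPM in heart 4, apart from the other 3 by the Dixon criterion at 95%, which chance meets in about 1 in 20 groups. Each of the 10 members was examined in HET and in KO hearts, unless all values of a group were equal. A flag by chance could therefore arise among them. The criterion carries no information for Il6 and Il11, since any count in 1 heart meets it when the other 3 are at 0. Il6 was at 0.127 CPM in 1 KO heart, which is 3 counts, and Il11 at 0.212 CPM in 1 HET heart, which is 5 counts.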

How the results depend on the processing

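The fold threshold had the widest effect on the counts of members called. With a threshold of 0.585 in place of 1, the count in untreated CFs went from 2 to 5 for siR-1, from 2 to 4 for siR-2 and from 2 to 4 between the siRNAs, and that of differences from 1 to 3 for siR-2 under IL-17, from 0 to 1 for siR-1 under TGF-β and from 1 to 3 for siR-2 under TGF-β. The share of all genes called also rose, from 4.76% to 12.1%, from 10.7% to 21.1% and from 6.65% to 15.9% in untreated CFs, and for the differences from 0.165% to 0.485%, from 2.36% to 5.61% and from 5.09% to 11.6%. With a threshold of 1 in place of 0.585, it went from 3 to 1 for siR-2 under IL-17, from 1 to 0 between the siRNAs under IL-17, and from 2 to 0 for each siRNA under TGF-β, where the share of all genes went from 21.7% to 11.3%, from 15.7% to 6.45%, and from 4.36% to 1.37% (siR-1) and 7.51% to 2.95% (siR-2). Between the siRNAs under IL-17, DESeq2 and the fit without a filter on low counts gave 2 in place of 1. When each library was left out in turn, the count ranged from 1 to 2 for siR-2 in untreated cells (1 without Scrambled replicate 3), from 1 to 3 between the siRNAs under IL-17 (3 without siR-1 replicate 3), from 1 to 2 for siR-1 under TGF-β and from 0 to 1 between the siRNAs under TGF-β. All other counts stayed within 1.5 times the main one under every alternative run.

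Only small and uncalled changes reversed, and the cause was not tested. The siR-1 difference of Clcf1 under IL-17 (-0.00) was 0.0041 with at least 10 counts in every library, 0.0059 with estimated counts divided by 6 and 0.0028 without a filter. With libraries left out it ranged from -0.065 to 0.035, and that of Ctf1 from -0.48 to 0.84 under IL-17 and from -0.37 to 0.94 under TGF-β, and the siR-2 difference of Lifr under IL-17 from -0.13 to 0.025. In untreated cells Ctf1 ranged from -1.08 to 0.24 for siR-1, from -0.24 to 0.12 for siR-2 and from -0.33 to 0.99 between them, and under IL-17 from -0.45 to 0.081 for siR-1. Under TGF-β, Il11 ranged from -0.019 to 0.15 for siR-2, and between the siRNAs Clcf1 from -0.040 to 0.024 and Il11ra1 from -0.034 to 0.034. Between KO and HET hearts, Clcf1 ranged from -0.24 to 0.20, Ctf1 from -0.11 to 0.057, Il6st from -0.031 to 0.055 and Il11ra1 from -0.058 to 0.00014.

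With the replicate number as a block, the count of members called was the same in all 15 CF comparisons, for example 2 for each siRNA in untreated cells and 4 for each stimulus. The numbers did not pair the libraries, since deviations of same-numbered libraries correlated between -0.07 and 0.03 and 5 of 27 libraries correlated best with their own number. No paired analysis was possible for hearts because their columns give the genotype only. Low counts limit Ctf1 in untreated and IL-17-treated CFs, and Il6, Il11 and Lif in hearts. Stimulus and table cannot be told apart.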
